A study of Mus musculus with 6 samples.

Results

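The genes of the mitochondrial carrier family (Slc25) were examined in gastrocnemius muscle, the large muscle of the calf, of mice with and without an activated Hras allele. Members were all genes whose symbol starts with Slc25a. The files listed 47 of them among 23997 gene symbols, and 38 had a mean of at least 0.5 FPKM over the 6 libraries, the level from which genes were tested (13359 genes in all). FPKM is the number of mapped fragments per kilobase of transcript, relative to the size of the library and scaled between libraries by Cuffnorm, so levels of different genes can be set side by side. The HrasG12V group (3 mice, numbers 2276, 2278 and 2279) was Caggs-Cre+/HrasG12V/+, in which a Cre recombinase under the CAG promoter, active in most tissues, had switched the floxed allele to HrasG12V under its own promoter. The WT group (3 mice, numbers 2277, 2280 and 2281) was Caggs-Cre-/HrasflG12V/+ and labelled Hras+/+: it carried the same floxed allele without Cre. The genotypes therefore differ in the presence of Cre as well as in Hras. All mice were 21 days old and untreated, on a mixed SWR/J, 129S1/SvImJ and C57BL/6J background. One library was made per mouse.

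Mitochondrial carriers are small proteins of the inner mitochondrial membrane, built from 3 related repeats, that exchange nucleotides, phosphate, organic acids, amino acids, cofactors and metals between the matrix and the cytosol. In skeletal muscle the ADP/ATP carrier and the phosphate carrier supply ATP synthase with its substrates and export ATP, while the aspartate/glutamate and 2-oxoglutarate carriers move the reducing equivalents of glycolysis into the matrix as parts of the malate-aspartate shuttle. The carnitine/acylcarnitine carrier brings fatty acids to beta-oxidation, and the citrate carrier exports the carbon from which fatty acids are built.

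Several facts of the libraries touch these values. The sum of FPKM was 814013 in HrasG12V mouse 2276 against 413020 to 547122 in the other 5 libraries, and these sums are not depths. The authors give only an approximate number of reads per sample, and FPKM carry no read counts. The exact depth of each library is thus unknown, and the spread between mice is the only measure of error. The labels give no batch, sex or litter. Hras itself was at 16.0 to 58.8 FPKM in HrasG12V and 36.0 to 51.8 FPKM in WT mice, with overlapping groups, and FPKM sums both alleles. Of 8 markers of skeletal muscle fibers, Acta1 and Myh4 were listed at 0 in every library and Ckm in 5 of 6, Tnnt3 in mouse 2276 alone and Myh1 in WT mice 2277 and 2280. A 0 of such a muscle gene may be a failed estimate of Cuffnorm. Of the rest, Mylpf, a fast light chain, was at 10760 to 36114 FPKM. The 6 slow fiber markers summed to 1078, 1112 and 16.5 FPKM in WT mice 2277, 2280 and 2281. In HrasG12V mice 2276, 2278 and 2279 they summed to 3150.3, 923 and 2045 FPKM. Their median log2 fold change was 2.80, and 3 of the 6 were higher in every HrasG12V mouse (8.11% of all genes). An unadjusted limma p below 0.05 was found for 0 of them. B cell markers summed to 69.4 and 54.7 FPKM in mice 2278 and 2279 and to at most 1.30 FPKM in the other 4, and T cell markers to 19.3 and 25.5 FPKM and at most 0.782 FPKM. The 3 neutrophil markers summed to 19.5, 118 and 45.5 FPKM in mice 2276, 2278 and 2279 and to at most 3.48 FPKM in WT mice. Of them S100a8 and S100a9 had an unadjusted limma p below 0.05, higher (5.18% of all genes). Ngp, at a mean of 0.0707 FPKM in WT mice, passed the filter only through the HrasG12V mice and is not counted. Schwann cell markers summed to 226, 514 and 615 FPKM in these mice and to 133 to 370.05 FPKM in WT mice. The part of these cell types in the levels of the carriers was not tested. In whole muscle, fewer cells of a type and less RNA per cell cannot be told apart.

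Of the 38 carrier genes tested, 0 had a limma adjusted p below 0.05, where 0.0599% of all genes tested did (no other tool was run). The limma adjusted p-values, by the Benjamini-Hochberg method over all 13359 genes, ran from 0.369 to 0.981. An unadjusted limma p below 0.05 was found for 6 members (15.8%), against 10.2% of all genes tested. An exact permutation test of 3 against 3 mice cannot give a two-sided p below 0.1. Lower in HrasG12V muscle were 4 of them (10.5%, background 4.99%), Slc25a25, Slc25a22, Slc25a46 and Slc25a36, and higher were Slc25a10 and Slc25a1 (5.26%, background 5.18%). The genotypes did not overlap for 9 members (23.7%, background 18.5%), 8 lower in every HrasG12V mouse (background 10.4%) and 1 higher (background 8.11%). The 8 were Slc25a22, Slc25a25, Slc25a32, Slc25a34, Slc25a36, Slc25a40, Slc25a42 and Slc25a46. Log2 fold changes, HrasG12V minus WT on the log2(FPKM + 0.1) scale, were below 0 for 23 of the 38 (60.5%, against 53.4% of all genes), with a median of -0.16 against -0.03 over all genes. Under 16 alternative settings the unadjusted limma p stayed below 0.05 in 16 for Slc25a25 and Slc25a22, in 11 for Slc25a46 and Slc25a10, in 10 for Slc25a36 and in 7 for Slc25a1. When all libraries were given 1 total FPKM the split of unadjusted calls was 0 higher and 5 lower, where 2.84% and 2.49% of all genes were called. It was also 0 and 5 with the trend over transcript length removed, where 6.39% and 4.7% of all genes were.

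**Figure D1:**
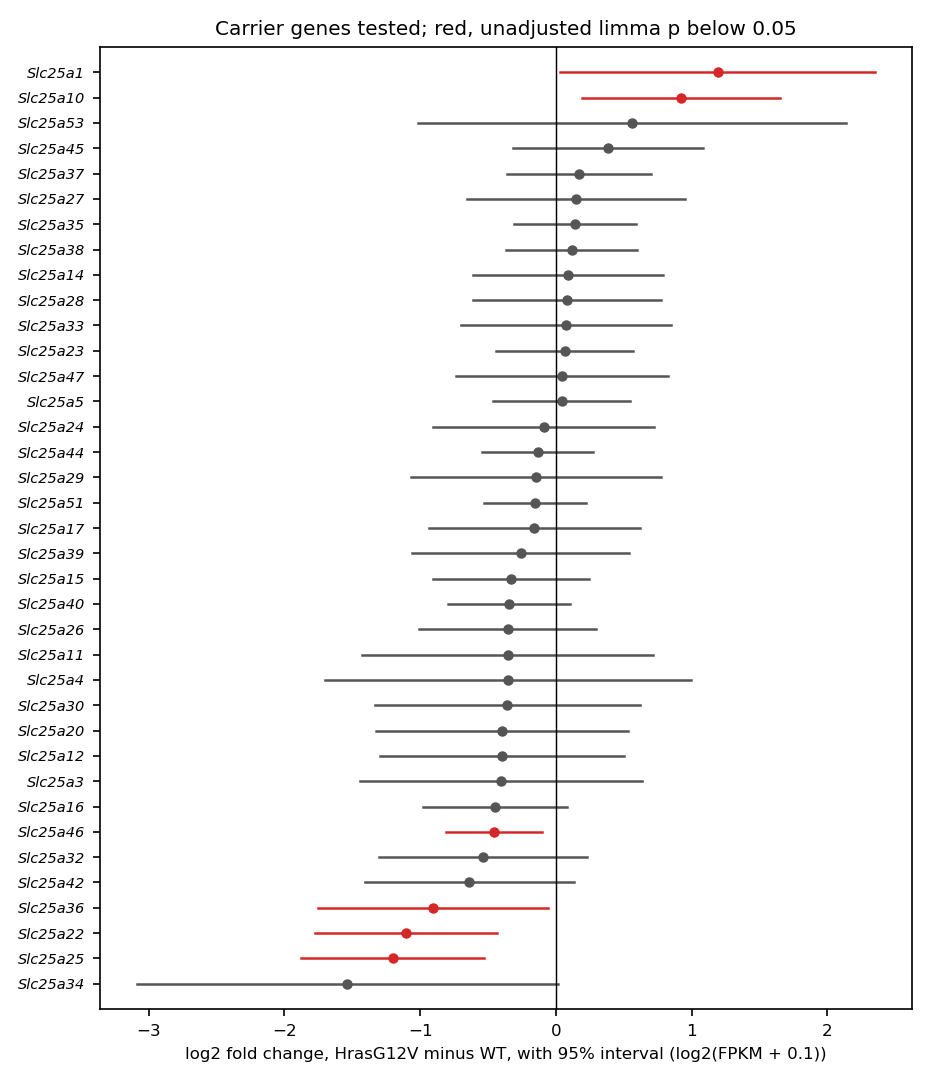
Log2 fold change (HrasG12V minus WT, log2(FPKM + 0.1)) of the carrier genes tested (1 of the 38 is not shown), as points with 95% limma intervals, ordered by size, with unadjusted p below 0.05 in red. Slc25a34 is lowest at -1.54 with an interval that reaches just past 0, and Slc25a1 is highest at 1.19.

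The carriers that serve ATP production were the most abundant and separated the HrasG12V mice from each other. Slc25a4, the muscle ADP/ATP carrier, made up 64.2% to 74.0% of the summed FPKM of the family in each library. Its level was 3721, 3373 and 3919.95 FPKM in WT mice 2277, 2280 and 2281 and 6069, 1842 and 2105 FPKM in HrasG12V mice 2276, 2278 and 2279. Mouse 2276 was above and mice 2278 and 2279 were below all 3 WT mice. Slc25a3, the phosphate carrier, was at 766, 678 and 716 FPKM in the WT mice and at 1010.3, 388 and 412 FPKM in the HrasG12V mice, in the same order. Slc25a12, the calcium-activated aspartate/glutamate carrier of muscle also called aralar, was at 227, 210.3 and 245 FPKM in WT and at 299.6, 134 and 128 FPKM in HrasG12V mice. Slc25a11, the 2-oxoglutarate carrier that completes the malate-aspartate shuttle, was at 183, 166 and 179 FPKM in WT and at 282, 99.4 and 93.1 FPKM in HrasG12V mice. In FPKM all 4 genes thus had 1 HrasG12V mouse above and 2 below the WT range. The high side depended on the scaling. As a share of the summed FPKM of its library, mouse 2276 was above the WT mice for Slc25a4 (0.746% against 0.687% to 0.716%), within their range for Slc25a11 and below it for Slc25a3 (0.124% against 0.131% to 0.146%) and Slc25a12 (0.0368% against 0.0428% to 0.0447%), while mice 2278 and 2279 were below WT for all 4.

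In the genotype comparison of these 4 genes, the log2 fold change was -0.35 for Slc25a4 (standard error 0.56, limma adjusted p = 0.879, 95% interval -1.70 to 0.99), -0.40 for Slc25a3, -0.40 for Slc25a12 and -0.35 for Slc25a11. Without mouse 2276 they were -0.90, -0.85, -0.80 and -0.87, and the limma adjusted p was 0.0242, 0.0180, 0.0203 and 0.0129 in the same order. Without mouse 2278 they were -0.04, -0.16, -0.21 and -0.12, and without mouse 2279 they were -0.13, -0.20, -0.18 and -0.07. With all mice kept, array weights gave -0.81, -0.79, -0.71 and -0.78, each with an unadjusted limma p below 0.05 (22.8% of all genes). Slc25a3 and Slc25a12 also passed that limit with quantile normalization (12.7% of all genes) and with 1 total FPKM (5.33%), at -0.36 to -0.41. Slc25a4 was at -0.10 with quantile normalization, and Slc25a12 at -0.22 with the length trend removed. In the set of 5 mice without 2276, 7 carrier genes (18.4%) had an adjusted p below 0.05, where 9.91% of all genes did, and the other 3 were Slc25a25, Slc25a22 and Slc25a53. Slc25a53 passed the filter on low values only through mice 2278 and 2279, in which it was high, and leaving it out gives 6 adjusted calls. An unadjusted limma p below 0.05 was then found for 17 members (44.7%, background 29.7%), 4 higher (background 12.4%, 3 of them other than Slc25a53) and 13 lower (background 17.4%). The genotypes did not overlap for 21 (55.3%, background 48.2%), 4 higher (background 19.9%, 3 of them other than Slc25a53) and 17 lower (background 28.3%). In FPKM, 8 members (21.1%) were above every WT mouse in 2276 and below every WT mouse in 2278 and 2279, an arrangement found in 14% of all genes tested. Beside the 4 energy carriers these were Slc25a15, Slc25a26, Slc25a29 and Slc25a39.

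**Figure D2:**
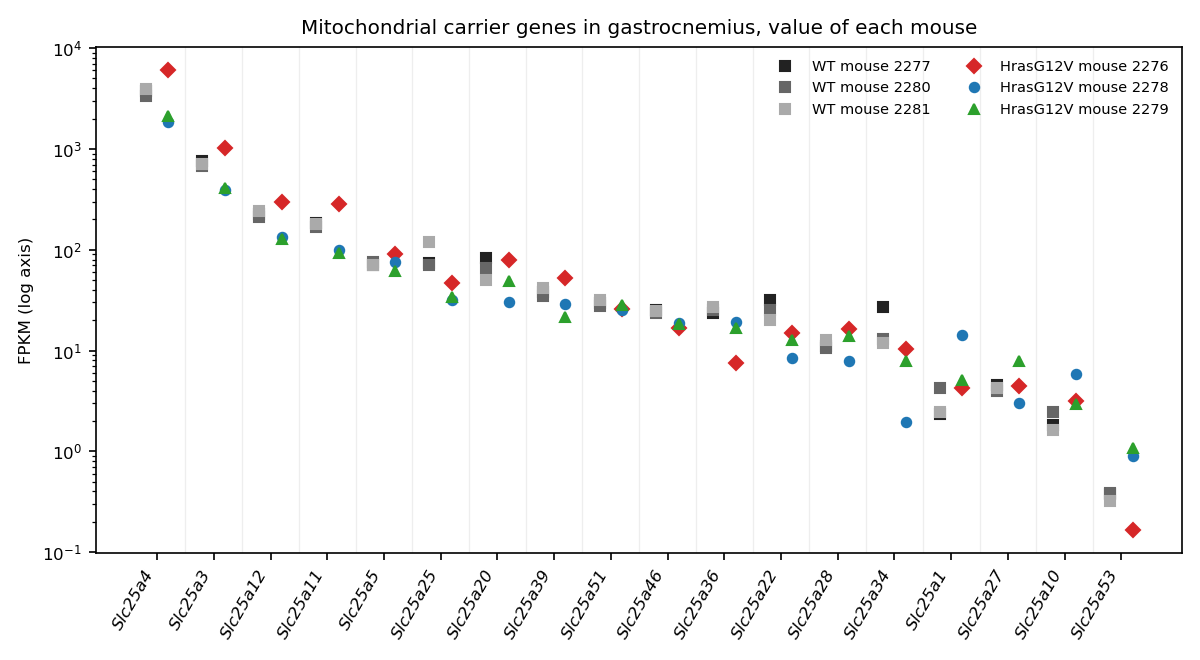
FPKM on a log axis of the 18 carrier genes given mouse by mouse, ordered by mean level, with WT mice as grey squares and each HrasG12V mouse in its own color. Mouse 2276 (red) lies above and mice 2278 and 2279 lie below the WT mice for Slc25a4, Slc25a3, Slc25a12 and Slc25a11 (as a share of the library total, mouse 2276 is above WT for Slc25a4 alone of these), and all HrasG12V mice lie below WT for Slc25a25, Slc25a22, Slc25a46, Slc25a36 and Slc25a34.

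In FPKM, all 15 tested subunits of ATP synthase were above every WT mouse in 2276 and below every WT mouse in 2278 and 2279, and so were 10 of 17 citric acid cycle genes. Of the other 7 genes of the cycle, all below WT in mice 2278 and 2279, 5 were within the WT range in mouse 2276 and 2 were below it. The 15 subunits of ATP synthase summed to 12450 to 13337 FPKM in WT mice and to 25613, 7282 and 7389.95 FPKM in HrasG12V mice 2276, 2278 and 2279. The median difference of these subunits from the WT mean, in log2, was 1.01 in mouse 2276, -0.87 in mouse 2278 and -0.82 in mouse 2279, beside 0.58, -0.86 and -0.82 for Slc25a4, Slc25a3, Slc25a12 and Slc25a11. For the 17 citric acid cycle genes it was 0.37, -0.77 and -0.84. No gene of either list had an unadjusted limma p below 0.05 between genotypes (0 of 15 and 0 of 17, background 10.2%). Set against the summed ATP synthase subunits of the same library, Slc25a4 was at 271 to 302 per 1000 FPKM in WT mice and at 237, 253 and 285 in mice 2276, 2278 and 2279, and Slc25a11 was at 13.4 to 13.8 and at 11.01, 13.6 and 12.6. In mouse 2276 both ratios were below every WT mouse, as were those of Slc25a3 (39.4 against 54.4 to 57.5) and Slc25a12 (11.7 against 16.9 to 18.8). In mice 2278 and 2279 Slc25a3 was at 53.2 and 55.7 and Slc25a12 at 18.3 and 17.3. The ratio of Slc25a4 in mouse 2278 and that of Slc25a11 in mouse 2279 were below the WT range. In the other of these mice each was within it. In FPKM the carriers were far below the WT range in both mice.

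**Figure D3:**
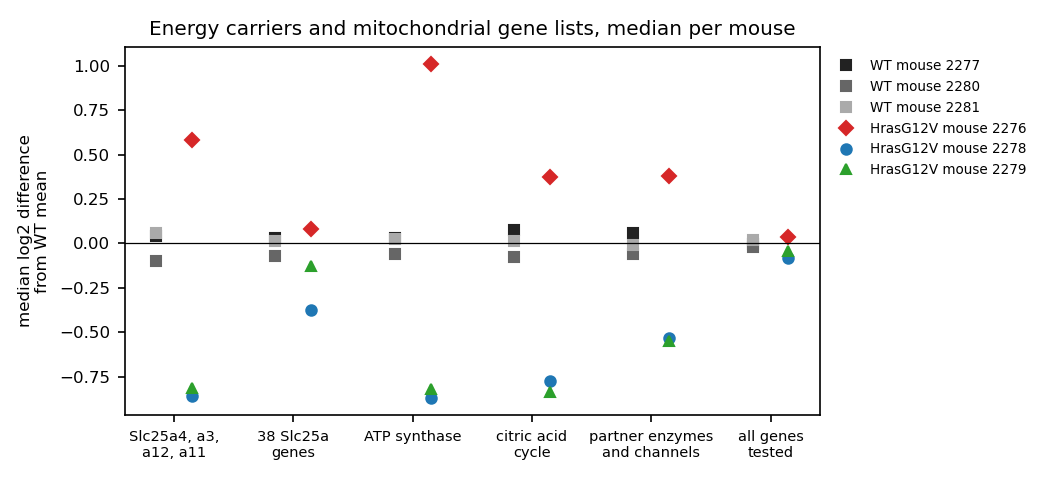
Median log2 difference from the WT mean in each mouse, for 4 energy carriers (set together after their values were seen), the 38 carrier genes tested, ATP synthase, the citric acid cycle, partner enzymes and channels, and all genes tested. The 3 HrasG12V mice spread from -0.87 to 1.01 for ATP synthase and stay between -0.08 and 0.04 over all genes.

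Slc25a5, the ADP/ATP carrier of most other and of proliferating cells, was at 71.2, 76.0 and 69.9 FPKM in WT mice and at 89.7, 74.8 and 61.7 FPKM in HrasG12V mice 2276, 2278 and 2279, and the groups overlapped (log2 fold change 0.04, limma adjusted p = 0.968, 95% interval -0.46 to 0.55). Its sign turned to -0.09 without mouse 2276. The ratio of Slc25a4 to Slc25a5 was 44.4 to 56.1 in WT mice, 67.6 in mouse 2276 and 24.6 and 34.1 in mice 2278 and 2279. The ratio of the muscle to the general isoform was thus lowest in the mice with B cell markers, and the part of other cell types in it was not tested. Slc25a31, the ADP/ATP carrier of the testis, was at most at 0.0287 FPKM.

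Slc25a25, one of the calcium-regulated ATP-Mg/phosphate carriers that adjust the pool of adenine nucleotides in the matrix, had the lowest unadjusted p of the family. It was at 74.7, 69.8 and 119 FPKM in WT mice and at 46.8, 31.9 and 34.1 FPKM in HrasG12V mice, or 0.428 of the WT mean. Each HrasG12V mouse was below each WT mouse. The log2 fold change was -1.20 with a standard error of 0.28 (limma adjusted p = 0.369, 95% interval -1.88 to -0.53). Leaving out each mouse in turn gave values from -1.37 to -0.96, and the unadjusted limma p was below 0.05 under all 16 alternative settings, while the adjusted p was below 0.05 only without mouse 2276 (0.0363) among them. Relative to the summed ATP synthase subunits it was also lower in every HrasG12V mouse (1.83 to 4.62 against 5.60 to 9.18 per 1000 FPKM). In the same ratio the genotypes overlapped for Slc25a22 (0.587 to 1.73 against 1.54 to 2.40), Slc25a34, Slc25a1 and Slc25a10. The related Slc25a23 and Slc25a24, at means of 10.1 and 2.94 FPKM in WT and 10.8 and 2.95 FPKM in HrasG12V mice, overlapped between genotypes (log2 fold changes 0.06 and -0.09). The ratio of Slc25a25 to Slc25a23 was 3.12 to 3.94 in HrasG12V and 6.78 to 12.8 in WT mice, which did not overlap. Slc25a41 was at 0 in 4 libraries.

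Promoter sequence was available from RefSeq for 29 of the 38 genes tested (38 windows of 250 bases before and 50 after a start site, GRCm38.p6). Motifs were searched on both strands for factors known for mitochondrial or cAMP-driven genes, namely TGACGTCA (CREB), CTAAAAATA (MEF2), AAGGTCA (estrogen-related receptors), GCGCATGCG (NRF1) and CCGGAAGT (ETS factors such as GABPA). They were found in 2, 0, 1, 0 and 1 of the 38 windows, and in 1.79%, 0.517%, 4.72%, 1.75% and 3.89% of all 32851 windows. TGACGTCA reads the same on both strands. The windows with TGACGTCA were those of Slc25a25 (1 of its 3) and Slc25a36, and AAGGTCA was found for Slc25a34, on the opposite strand. These 3 are shown since the genes were below WT in all HrasG12V mice and hold a searched motif, in capitals, which no other searched motif overlaps. They lie at chr2:32424017-32424316, chr9:97110992-97111291 and chr4:141623785-141624084, all on the minus strand. The motif begins at base -150, -161 and -119 from the start site.
Slc25a25: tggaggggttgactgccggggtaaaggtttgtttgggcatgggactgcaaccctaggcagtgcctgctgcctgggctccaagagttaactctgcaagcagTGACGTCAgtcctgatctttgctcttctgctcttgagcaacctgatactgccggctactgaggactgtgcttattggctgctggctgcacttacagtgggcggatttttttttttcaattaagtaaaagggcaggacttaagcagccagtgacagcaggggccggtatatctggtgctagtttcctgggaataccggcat
Slc25a36: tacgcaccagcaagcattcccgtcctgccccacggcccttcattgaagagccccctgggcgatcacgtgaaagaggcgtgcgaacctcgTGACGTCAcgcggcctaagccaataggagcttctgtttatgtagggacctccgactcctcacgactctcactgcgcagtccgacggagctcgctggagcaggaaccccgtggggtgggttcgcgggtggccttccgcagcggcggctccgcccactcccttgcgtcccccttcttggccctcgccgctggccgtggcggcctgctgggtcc
Slc25a34: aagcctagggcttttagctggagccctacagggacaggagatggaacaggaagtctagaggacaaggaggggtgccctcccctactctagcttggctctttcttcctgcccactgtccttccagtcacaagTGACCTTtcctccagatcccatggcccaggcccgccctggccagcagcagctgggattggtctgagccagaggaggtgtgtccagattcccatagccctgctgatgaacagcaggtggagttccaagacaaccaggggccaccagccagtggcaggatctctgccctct
A match of letters is a description of the sequence and no evidence of binding.

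Slc25a22, a carrier that imports glutamate with a proton, was at 32.1, 25.3 and 20.1 FPKM in WT mice and at 15.03, 8.44 and 12.8 FPKM in HrasG12V mice 2276, 2278 and 2279, 0.468 of the WT mean with no overlap. Its log2 fold change was -1.10 with a standard error of 0.28 (limma adjusted p = 0.382, 95% interval -1.77 to -0.43). It ranged from -1.28 to -0.87 over the sets of 5 mice, with an unadjusted limma p below 0.05 under all 16 alternatives. The adjusted p was 0.0493 with array weights and 0.0476 without mouse 2276. The gene lies on the chromosome of Hras, from 141429744 to 141437892 on chromosome 7 of GRCm38, 236 kb from the end of Hras with 14 protein-coding genes between them in GENCODE vM21. The Hras locus itself differs between the genotypes, recombined in HrasG12V and unrecombined in WT mice, and the part of this position in the difference was not tested. The other aspartate/glutamate carrier, Slc25a13 (citrin), and the glutamate carrier Slc25a18 had means below 0.5 FPKM.

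The members with an unadjusted limma p below 0.05 and a higher level were 2 of the 5 tested carriers of citrate, dicarboxylates and 2-oxoglutarate (5.18% of all genes were called higher), while Slc25a11 and Slc25a34 of this role group had log2 fold changes of -0.35 and -1.54. Slc25a1, which exports citrate for fatty acid synthesis, was at 2.34, 4.28 and 2.45 FPKM in WT mice and at 4.25, 14.3 and 5.10 FPKM in HrasG12V mice, with mouse 2276 just under the highest WT mouse. The log2 fold change of Slc25a1 was 1.19 (standard error 0.48, 95% interval 0.03 to 2.35, limma adjusted p = 0.488). Without mouse 2278 it was 0.66. The unadjusted limma p was above 0.05 under 9 of the 16 alternatives, among them without mouse 2277, 2278, 2279 or 2281. Slc25a10, which exchanges malate or succinate for phosphate, was at 1.82, 2.45 and 1.64 FPKM in WT mice and at 3.14, 5.81 and 2.93 FPKM in HrasG12V mice without overlap (log2 fold change 0.92 with a standard error of 0.30, limma adjusted p = 0.442). Its unadjusted limma p was above 0.05 without WT mouse 2277 or 2281, with all libraries at 1 total FPKM, without moderation and with the length trend removed. Both genes were highest in mouse 2278, as was Acly, the enzyme that splits exported citrate (6.48 to 7.57 FPKM in WT, 6.79, 27.8 and 8.52 FPKM in HrasG12V mice 2276, 2278 and 2279). The 5 white adipocyte markers summed to 10.5 to 55.2 FPKM in WT mice and to 55.3, 248 and 183 FPKM in these HrasG12V mice, and 2 of the 5 had an unadjusted limma p below 0.05, both higher (background 5.18%). None of the 5 was at 0 in any library. Their part in the level of Slc25a1 and Slc25a10 was not tested.

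Slc25a34, a relative of the oxaloacetate and dicarboxylate carriers, had the lowest fold change of the family. It was at 27.2, 12.9 and 11.8 FPKM in WT mice and at 10.3, 1.97 and 7.89 FPKM in HrasG12V mice. The groups did not overlap, but both were wide, and the log2 fold change of -1.54 had a standard error of 0.65 (95% interval -3.09 to 0.01, limma adjusted p = 0.493). It was -0.82 without mouse 2278 and -1.99 without mouse 2276. Slc25a35, its close relative, was at a mean of 4.57 FPKM in WT and 5.07 FPKM in HrasG12V mice. Slc25a21 was below 0.5 FPKM.

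Slc25a20, the carnitine/acylcarnitine carrier, was at 82.4, 65.2 and 50.03 FPKM in WT mice and at 79.4, 30.2 and 49.0 FPKM in HrasG12V mice (log2 fold change -0.40, limma adjusted p = 0.776, 95% interval -1.32 to 0.53). The groups overlapped, with mouse 2276 inside the WT range. The log2 fold change was -0.05 without mouse 2278, -0.74 without mouse 2276 and -0.22 without WT mouse 2277, and -0.81 with array weights. Slc25a29, Slc25a45 and Slc25a47 had means of 1.80 to 3.88 FPKM and overlapped. Among carriers of other amino acids and of glutathione, Slc25a39, which brings glutathione into mitochondria, was at 38.4, 34.9 and 41.5 FPKM in WT and at 52.0, 29.1 and 21.4 FPKM in HrasG12V mice. It followed the order of the energy carriers. Its relative Slc25a40 was lower in every HrasG12V mouse (2.99 ± 0.260 FPKM in WT and 2.35 ± 0.426 in HrasG12V mice, SD, n = 3; limma adjusted p = 0.588), though the nearest mice of the genotypes were almost level. Slc25a15 (ornithine), Slc25a38 (glycine) and Slc25a44 (branched-chain amino acids) overlapped between genotypes.

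Of 9 carriers of cofactors, coenzyme A and nucleotides, 7 had log2 fold changes below 0 (53.4% of all genes did) and 3 were lower in every HrasG12V mouse (10.4% of all genes). Slc25a36, a pyrimidine nucleotide carrier, was at 23.6, 25.3 and 26.8 FPKM in WT mice and at 7.54, 19.1 and 16.7 FPKM in HrasG12V mice, lowest in mouse 2276 (log2 fold change -0.90 with a standard error of 0.35, limma adjusted p = 0.481). Without mouse 2276 the log2 fold change was -0.49, and with array weights it was -0.53. The unadjusted limma p was above 0.05 without any 1 of the WT mice, with quantile normalization, with all libraries at 1 total FPKM and without moderation. Slc25a42, a coenzyme A carrier, was at 32.5 ± 5.88 FPKM in WT and 21.7 ± 7.67 FPKM in HrasG12V mice (SD, n = 3; limma adjusted p = 0.557), its nearest mice at 27.1 and 26.9 FPKM, and Slc25a32, known for the import of folate and FAD, was at 5.89 ± 0.230 and 4.29 ± 1.69 FPKM (SD, n = 3; limma adjusted p = 0.624). Slc25a51, the NAD carrier, with the highest mean of these genes over the 6 mice though below Slc25a42 in WT, was at 29.6, 27.4 and 31.5 FPKM in WT and at 25.7, 25.3 and 28.2 FPKM in HrasG12V mice, with groups that overlapped in a narrow range (95% interval of the log2 fold change -0.53 to 0.22). Slc25a16, Slc25a17, Slc25a26 and Slc25a33 overlapped between genotypes. For Slc25a32 the HrasG12V mice 2276, 2278 and 2279 were at 2.35, 5.10 and 5.42 FPKM, against 5.63 to 6.06 FPKM in WT mice. Its nearest mice were thus almost level, and the difference lay mostly in mouse 2276.

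Slc25a46, a member of the outer membrane that takes part in mitochondrial fusion and fission, showed the smallest standard error of the family. It was at 25.1, 23.5 and 24.9 FPKM in WT mice and at 16.6, 18.8 and 18.1 FPKM in HrasG12V mice, 0.729 of the WT mean with a clear gap between the groups. The log2 fold change was -0.46 with a standard error of 0.15 (95% interval -0.81 to -0.10, limma adjusted p = 0.435). Its unadjusted limma p was above 0.05 without WT mouse 2277, 2280 or 2281, with quantile normalization and with all libraries at 1 total FPKM.

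The iron carriers did not separate the genotypes. Slc25a28 (mitoferrin 2) was at 11.1, 10.6 and 12.8 FPKM in WT and at 16.4, 7.80 and 14.0 FPKM in HrasG12V mice, and Slc25a37 (mitoferrin 1, the form of red cell precursors) at a mean of 9.19 and 10.5 FPKM. Mouse 2278 was highest for Slc25a37 and lowest for Slc25a28. The 8 erythroid markers found summed to 658 to 765 FPKM in WT mice and to 1975, 1495 and 604 FPKM in mice 2276, 2278 and 2279. The uncoupling-protein-like Slc25a14, Slc25a27 and Slc25a30 overlapped. Slc25a27, known from brain, was at 4.60, 3.94 and 4.28 FPKM in WT and at 4.43, 3.02 and 7.90 FPKM in HrasG12V mice, and its log2 fold change of 0.15 became -0.22 without mouse 2279. Slc25a53, without a settled substrate, was at 0.378, 0.385 and 0.321 FPKM in WT and at 0.166, 0.898 and 1.08 FPKM in HrasG12V mice. It was the lowest gene that passed the filter, at a mean of 0.537 FPKM, and its WT mean lay below 0.5 FPKM, so it passed through the HrasG12V mice. Slc25a13, at 0.364 FPKM, was the first below the filter, and Slc25a2, Slc25a18, Slc25a21, Slc25a31, Slc25a41, Slc25a43, Slc25a48 and Slc25a54 were lower still.

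**Figure D4:**
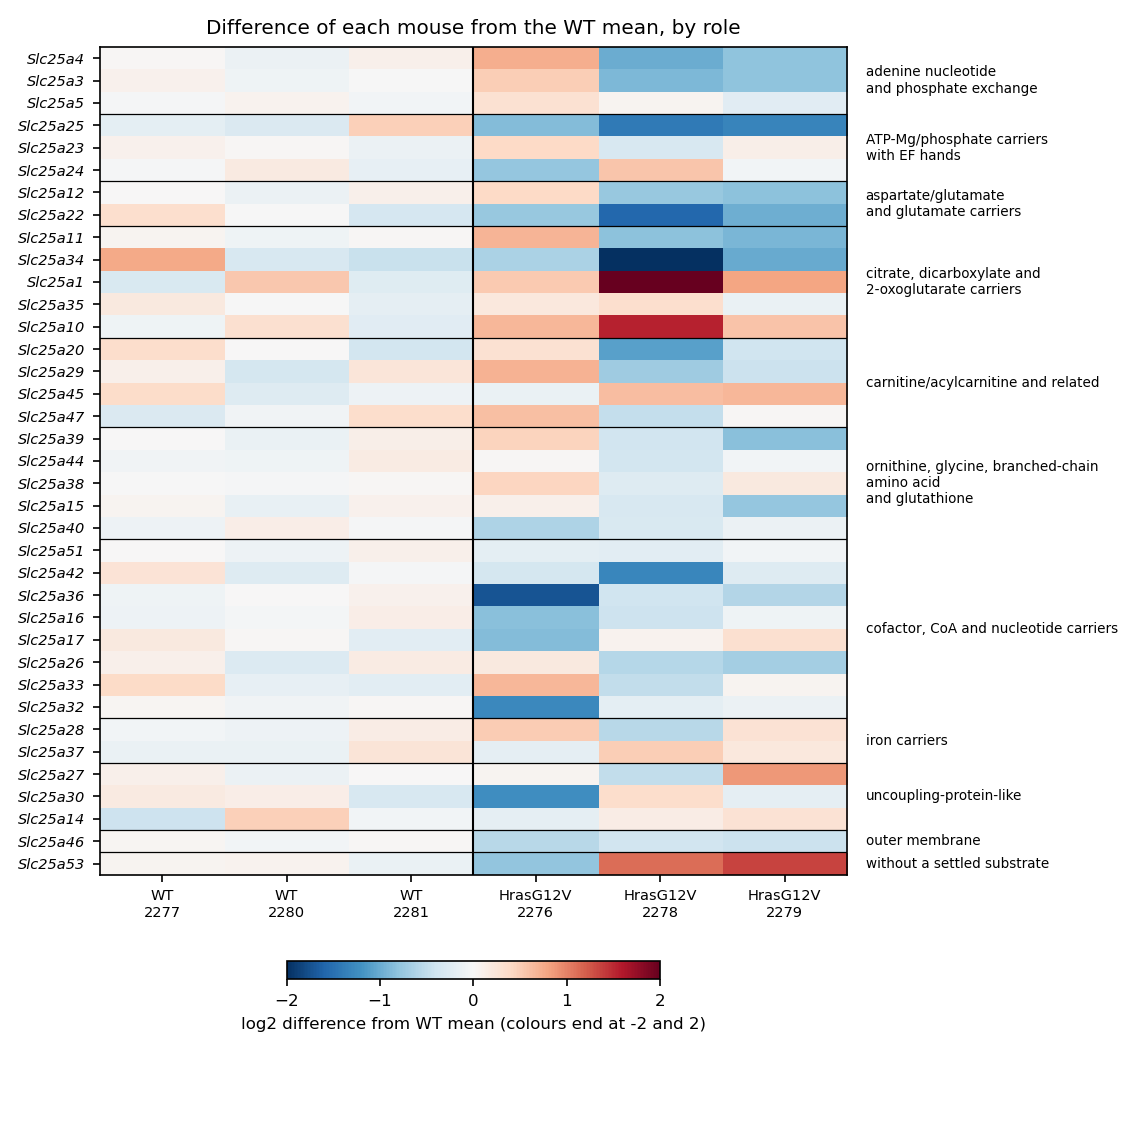
Log2 difference of each mouse from the WT mean for the carrier genes tested (1 of the 38 is not shown), in rows grouped by role and ordered by mean level, with blue for lower and red for higher. The column of mouse 2276 is red for Slc25a4, Slc25a3 and Slc25a11 where those of 2278 and 2279 are blue, on the FPKM scale, and dark blue for Slc25a36.

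Transcript length accompanied the values of 1 mouse. Over the 38 carrier genes, Spearman's rho between the length of the longest transcript (1240 to 6351 bases in GENCODE vM21) and the log2 difference from the WT mean was -0.52 in mouse 2276, -0.105 in mouse 2278 and -0.18 in mouse 2279. Over all 13267 genes with a length it was -0.50, 0.03 and 0.07, and between -0.02 and 0.04 in the WT mice, whose mean is the reference. Genes share a library in these correlations and are not independent. The 19 shorter members had a median difference of 0.43 in mouse 2276, with 14 above the WT mean, and the 19 longer ones -0.34, with 7 above it. With each library's trend over length removed, an alternative added after the data were seen, the log2 fold change was -0.76 for Slc25a36, -0.37 for Slc25a46, -1.14 for Slc25a25, -0.94 for Slc25a22 and -1.54 for Slc25a34, each with an unadjusted limma p below 0.05, and 0.87 for Slc25a10, whose unadjusted limma p was then above 0.05. Slc25a40 and Slc25a42 then overlapped between genotypes. The part of RNA quality in the values of mouse 2276 was not tested.

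**Figure D5:**
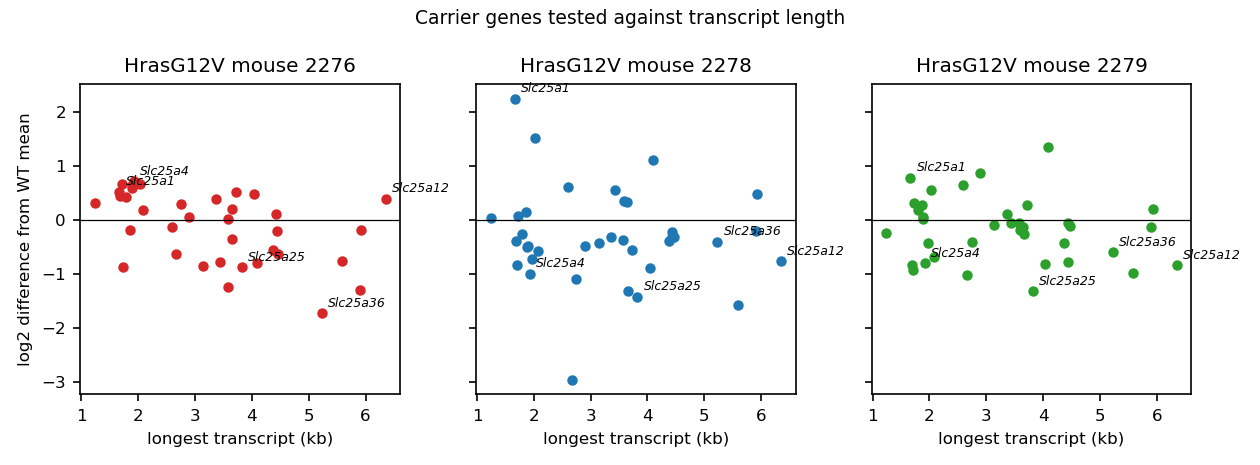
Log2 difference from the WT mean against the length of the longest annotated transcript in kb, for the carrier genes tested (1 of the 38 is not shown) in each HrasG12V mouse. In mouse 2276 most of the shorter transcripts, such as Slc25a4, lie above 0 and most of the longer ones, such as Slc25a36, below it, with Slc25a12 among the exceptions.

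Other members of the carrier superfamily carry other symbols. Ucp3, the uncoupling protein of muscle, was at 120.03, 80.6 and 128 FPKM in WT mice and at 37.1, 13.9 and 28.1 FPKM in HrasG12V mice (log2 fold change -2.14 with a standard error of 0.40, limma adjusted p = 0.288), without overlap. Ucp1, the uncoupling protein of brown fat, was at 5.60, 35.8 and 5.92 FPKM in HrasG12V mice 2276, 2278 and 2279, against 1.94, 0.662 and 0 FPKM in WT mice, without overlap. Of the 3 other brown adipocyte markers, Cidea was higher in each HrasG12V mouse, Elovl3 was at 1.63, 0.490 and 0.970 FPKM in mice 2276, 2278 and 2279 against 0.558 to 0.874 FPKM in WT mice, and Cox8b at 2732, 628 and 802 FPKM against 1154 to 1229 FPKM. Ucp2, a broadly expressed relative, was at 13.5, 20.2 and 21.6 FPKM against 11.6 to 13.3 FPKM in WT mice. Ucp1, Ucp2 and Ucp3 were the 3 of 5 relatives found and tested (8 were listed) with an unadjusted limma p below 0.05 (background 10.2%), and Mtch1 and Mtch2 overlapped. Among enzymes and channels that work with the carriers, 3 of 33 tested had an unadjusted limma p below 0.05, all lower in HrasG12V (9.09% of the list and 4.99% of all genes). Gpd2, the mitochondrial end of the glycerol phosphate shuttle, was at 51.4, 54.5 and 65.3 FPKM in WT and at 35.0, 32.4 and 40.99 FPKM in HrasG12V mice, below WT in each. Sfxn5, of the sideroflexin carriers, was at most at 1.87 FPKM in HrasG12V mice and higher in each WT mouse (log2 fold change -0.87 with a standard error of 0.16, limma adjusted p = 0.288). The shuttle enzymes Got1 and Got2 were above the WT range in mouse 2276 and below it in the others, at 264, 80.0 and 73.2 FPKM for Got1 and 497, 179 and 211 FPKM for Got2, against 171 to 222 and 359 to 404 FPKM in WT mice.

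Annotated genes overlap 23 of the 47 members, 17 of them on the opposite strand in GENCODE vM21, among them Naif1 at Slc25a25, Gm16185 at Slc25a36, Gm11788 at Slc25a10 and B930094E09Rik at Slc25a46. The kit was stranded, but whether the counting used strand is not given in the sources used here, so reads of these genes may be shared with their partners.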

How the data were processed

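Libraries from 6 gastrocnemius muscles (3 HrasG12V, 3 WT) were prepared with a stranded mRNA kit and read as single ends. The authors had mapped the reads with TopHat, and the deposited values are FPKM per gene symbol from Cufflinks and Cuffnorm, with GRCm38 (mm10) named in the submitters' processing notes. No version or annotation was given in the sources used here. Genes with a mean of at least 0.5 FPKM over the 6 libraries were kept, and log2(FPKM + 0.1) was compared between genotypes, as named in the sample titles, in limma 3.58.1 under R 4.3.3 (moderated with a trend on abundance, no covariate, Benjamini-Hochberg adjustment over 13359 genes). The mice were littermates, but their litters are not named and could not be fitted. The p-values set the genotype difference against the moderated spread between these mice. The comparison was tested on simulated data. Members, role groups, lists and motifs were chosen with earlier results of these data known. Values of every mouse are given for members with an unadjusted p below 0.05, the 6 most abundant, the most abundant of each role group and those with the highest and lowest fold change, and partner genes are named by unadjusted p. Slc25a40, Slc25a42 and other members outside this rule, with Acly, Got1 and Got2, were named after their values were seen. Slc25a4, Slc25a3, Slc25a12 and Slc25a11 were also grouped after their values were seen. Results of 2 single genes are left out here, and their values stay in the counts. Alternatives were other pseudocounts, filters and scalings, no moderation, array weights and leaving out each mouse. Promoters and positions came from RefSeq and GENCODE vM21.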

Additional observations from a re-analysis of the deposited data

How the results depend on the processing

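Fold changes of 18 carrier genes were recomputed under 16 alternatives (15 for Slc25a53), 287 values in all. Of these 232 kept their sign and their side of an unadjusted limma p of 0.05, 25 lost that p, 22 gained it and 8 turned sign. The sign of Slc25a5 turned with array weights (-0.057) and with the length trend removed (-0.070), and that of Slc25a28 with array weights (-0.13). With 1 mouse left out, the log2 fold change ran from -0.090 to 0.18 for Slc25a5, -0.22 to 0.46 for Slc25a27, -0.13 to 0.40 for Slc25a28 and -0.61 to 0.028 for Slc25a39. The count of members higher at an unadjusted p below 0.05 was 1 with a pseudocount of 1 or no filter, and 0 with the same total FPKM, no moderation or the length trend removed, where 2 were found with the settings of the report. It was 3 with array weights, 2 of them other than Slc25a53 (10.5% of all genes). It ran from 0 to 4 with 1 mouse left out (2.23% to 12.4% of all genes), where the 4 without mouse 2276 included Slc25a53. The count of lower members was 14 with array weights, which also raised the share of all genes called lower from 4.99% to 12.3%, and ran from 2 to 13 with 1 mouse left out (2.22% to 17.4% of all genes), the highest without mouse 2276. Past an adjusted p of 0.05 were 1 member with array weights (4.28% of all genes) and 0 to 7 with 1 mouse left out, 7 only without mouse 2276 (9.91% of all genes), 6 of them other than Slc25a53. Members higher in every HrasG12V mouse numbered 2 with no filter, quantile normalization or median centring and 0 with the same total FPKM or the length trend removed (5.69% to 10.4% of all genes), and 1 to 4 with 1 mouse left out (9.96% to 19.9%), where the 4 without mouse 2276 included Slc25a53. Members lower in every HrasG12V mouse numbered 8 to 17 with 1 mouse left out (12.7% to 28.3% of all genes). The causes were not tested. The removal of the length trend was chosen after the data were seen. The median log2 fold change of the family stayed between -0.24 and -0.08 in all settings. No paired analysis was possible because the groups are littermates but neither the labels nor the methods say which mice share a litter, and the numbers name single mice. The exact depth of each library is unknown, and 3 mice per genotype limit the precision.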
